A study of Mus musculus with 8 samples.

Results

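Solute carriers are membrane proteins that move amino acids, sugars, metals, ions, nucleotides, lipids and vitamins across the plasma membrane and the membranes of organelles. The solute carriers described here are genes whose mouse symbol has the form Slc, a family number, the letter a and a member number. The glucose carriers Slc2a1 and Slc2a3 and the lactate carriers Slc16a1 and Slc16a3 were left out. A gene entered where it had at least 5 CPM (its count scaled to the library total) in both replicates of at least 1 of the 4 groups. This gave 159 members from 40 families, of 330 such symbols and of 52636 genes in the table. The level rule used the counts of all groups, so the levels that admitted a gene are a description. At least 5 CPM was reached in all 4 groups by 126 members, in 3 groups by 10, in 2 groups by 11 and in 1 group by 12. Just inside the rule, the lower replicate of the highest group was 5.07 CPM for Slc15a2, 5.15 CPM for Slc39a7 and 5.34 CPM for Slc41a3. Just outside it stood Slc12a8 at 4.97 CPM, Slc44a3 at 4.73 CPM and Slc16a9 at 4.50 CPM.

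In endothelial cells, which line blood vessels, such carriers supply the cell and also govern what passes between blood and tissue. Many plasma membrane carriers are coupled to the sodium or proton gradient, others exchange 1 solute for another, and the Slc25 family carries metabolites across the inner mitochondrial membrane. Some amino acid carriers work only as pairs with a heavy chain encoded by Slc3a2. Cytokines such as interleukin 1 beta and tumour necrosis factor alpha activate endothelial cells, and ERG and FLI1 are transcription factors of the ETS family that are known to maintain endothelial identity.

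Gene counts came from 8 RNA libraries of mouse liver endothelial cells kept in culture, with 2 libraries in each of 4 groups. The groups were dKO with cytokines, dKO without cytokines, WT with cytokines and WT without cytokines. The labels do not spell out dKO, and the design text names deletion of Erg, Fli1 or both. All groups had 4-OHT, an active form of tamoxifen that is used to switch on tamoxifen-dependent recombinases, for 48 hours, WT cells included, and were taken about 7 days after it was first added. The labels place 4-OHT in the mice in one field and in the culture medium in another. Cytokine groups then had IL1B and TNFA together for 16 hours. Cells with the 2 cytokines are called treated and cells without them untreated. Live cells, negative for DAPI and CD45 and positive for CD31 and VE-cadherin, were sorted before RNA was taken. Whether the replicates of a group came from separate mice or cultures is not stated, so the p-values take in the spread among these libraries and no more, which may be technical. The recombinase, its driver, the age and the sex of the mice are not stated in the labels either.

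Libraries held 23009062 to 26944030 counts. Erg had 34.7 and 90.2 CPM in dKO with cytokines and 40.1 and 91.3 CPM in dKO without them, against 208 and 201 CPM in WT with cytokines and 196 and 186 CPM in WT without them. Fli1 had 12.4 and 35.2 CPM in dKO with cytokines and 21.9 and 62.5 CPM in dKO without them, against 91.5 and 96.4 CPM in WT with cytokines and 161 and 177 CPM in WT without them. Both genes were lower in every dKO library than in any WT library, and none of the 4 genotype tests of these 2 genes passed (adjusted p of 0.0538 to 0.0864). Replicate 2 of dKO had more of both transcripts than replicate 1. The summed level of 11 endothelial markers was 1566 to 3127 CPM in the 4 dKO libraries and 5199 to 8790.5 CPM in the 4 WT libraries. The sum of 12 stellate cell, pericyte and fibroblast markers, of which 9 reached 1 CPM in each group, was 13400.3 to 19188 CPM in dKO and 9220.05 to 10857 CPM in WT. Most of it was Dcn, at 11699 to 14787 CPM in dKO and 9024 to 10577 CPM in WT. Pdgfra had 615 to 1174 CPM in dKO and 2.07 to 32.2 CPM in WT, and Col3a1 332 to 1831 and 24.1 to 44.7 CPM. Dcn, Pdgfra, Pdgfrb, Lum, Col1a1, Col1a2 and Col3a1 were higher in every dKO library than in any WT library. Acta2 and Rgs5 overlapped, and Lrat, Reln and Des stayed under 1 CPM. The 8 cholangiocyte and mesothelium markers summed to 39.3 to 265 CPM in dKO and 3.03 to 3.69 CPM in WT. Most of the dKO sum was Spp1, at 25.6 to 244 CPM in dKO and 0.438 to 1.48 CPM in WT. Sox9, Krt19 and Cdh1 were also higher in every dKO library than in any WT library. Krt7, Epcam, Msln and Upk3b stayed under 1 CPM in every library. The sum of 8 liver sinusoidal endothelial markers was 39.7 to 687 CPM in dKO and 1774 to 2283 CPM in WT. Of 8 hepatocyte markers, Ttr, Cps1, Cyp2e1 and Tat were at 0 in every group, and 1, Ahsg, reached 1 CPM in dKO, where the sum was 81.8 to 226 CPM, against 0.0441 to 0.517 CPM in WT. Of 9 leukocyte markers, Cd3e and Clec4f were among those at 0 in every group, and the sum was 137 to 202 CPM in dKO and 252 to 552 CPM in WT. Nearly all of this sum was Cd14, at 133 to 198 CPM in dKO and 246 to 545 CPM in WT. Ptprc and Adgre1 were under 1 CPM in every library. These marker levels move with genotype, and some also move with cytokines. In WT the endothelial sum was 5199 to 5286 CPM with cytokines and 8733 to 8790.5 CPM without them. In dKO it was 1566 to 2399 CPM with cytokines and 1592 to 3127 CPM without them. The part of such shifts in the genotype and cytokine differences given next was not tested. In bulk RNA, fewer cells of a type and less RNA per cell cannot be told apart.

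Levels were first compared between members as CPM per kilobase of exon, averaged over the 8 libraries. They ran from 0.275 for the lowest member to 134 for Slc7a2, with a median of 6.38. After Slc7a2, the highest were Slc25a4 at 125, Slc25a5 at 113, Slc43a3 at 96.0, Slc39a1 at 81.0 and Slc48a1 at 72.6 CPM per kilobase. Slc25a4 and Slc25a5 encode the ADP/ATP carriers of mitochondria, Slc43a3 a purine nucleobase carrier, Slc39a1 a zinc importer and Slc48a1 a haem transporter. With cytokines, Slc7a2 led the order in both genotypes, with 296 CPM per kilobase in dKO and 204 in WT. Without cytokines, Slc25a4 led it, with 138 CPM per kilobase in dKO and 124 in WT. In WT without cytokines Slc25a4 and Slc25a5 had 124 and 123 CPM per kilobase and did not differ beyond their spread. Members together made up 14244.8 and 12325.4 CPM in dKO with cytokines and 10083.1 and 9037 CPM in dKO without them. In WT they made up 11288 and 10653.3 CPM with cytokines and 8272 and 8229.97 CPM without them. In these sums each treated library lay above both untreated libraries of its genotype, with Slc7a2 and without it. They use TMM-scaled totals, with factors of 1.14 and 1.10 in untreated WT and 0.952 and 0.982 in treated WT. On plain totals the order with Slc7a2 stayed, with 1.07% and 1.05% of counts in treated WT and 0.939% and 0.906% in untreated WT. The order without Slc7a2 did not stay on plain totals in either genotype. Without Slc7a2, the sums were 11377 and 9789 CPM in dKO with cytokines, 9745 and 8793 CPM in dKO without them, 9256 and 8956 CPM in WT with cytokines and 8211 and 8188 CPM in WT without them.

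Differences between groups were tested with edgeR's quasi-likelihood test over all 15698 tested genes, with Benjamini-Hochberg adjustment and a threshold of 0.05, and changes are log2 differences ± standard error. A member that met the level rule in some groups only entered through its higher groups, so the counts of called members describe the list and support nothing. The same holds for the tests of single members that met it only where they are high, which partly restate the rule and are given as a description. Among those named these are Slc7a8, Slc12a5 and Slc36a2 (met in treated dKO alone), Slc4a4 and Slc25a34 (untreated dKO), Slc1a6 (untreated WT), Slc2a6 (both treated groups), Slc25a35 (both untreated groups), and Slc7a3, Slc16a6 and Slc37a1 (both WT groups). Slc39a8 and Slc45a3 met it in each group but treated WT, and Slc8a1 in each but untreated WT. In untreated dKO against untreated WT, 30 members were higher and 17 lower, and 112 did not pass. Of all tested genes, 23% were called in this comparison, 13.4% higher and 9.66% lower, against 29.6% of the members. With cytokines, 39 members were higher in dKO than in WT and 25 were lower, beside 34% of all genes called, 18.6% higher and 15.4% lower. Cytokines against none in WT gave 20 members higher and 16 lower, beside 17.4% of all genes called, 9.72% higher and 7.69% lower. In dKO the cytokine comparison gave 20 higher and 4 lower, beside 5.55% of all genes called, 3.5% higher and 2.06% lower. The members called were 40.3%, 22.6% and 15.1% of the 159 in these last 3 comparisons. The median log2 change of the members was 0.01, 0.13, 0.02 and -0.02 in the 4 comparisons, beside 0.02, 0.01, -0.01 and -0.01 over all genes. Among the 126 members at 5 CPM or more in all 4 groups, the counts were 25 higher and 14 lower, 31 and 21, 17 and 12, and 17 and 4, in the same order.

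These counts depend on single libraries. Without WT replicate 1 or WT replicate 2 of the cells without cytokines, 13 and 17 members were called between dKO and WT without cytokines, in place of 47, and without dKO replicate 1 of those cells 23 were. With cytokines the genotype comparison called 18 and 29 members without WT replicate 1 and 2 with cytokines and 33 without dKO replicate 1 with cytokines, in place of 64. The cytokine comparison in WT called 12 members without either WT library that had no cytokines, and 15 and 18 without WT replicate 1 and 2 with cytokines, in place of 36. In dKO the cytokine comparison called 3 members without dKO replicate 1 that had no cytokines and 7 without dKO replicate 1 with cytokines, in place of 24. It called 9 without either WT library that had no cytokines, 12 without either WT library with cytokines, and 15 without dKO replicate 2 that had no cytokines. Replicate 2 of dKO lay nearer to WT than replicate 1 in 72.3% of the members called without cytokines and 78.1% of those called with them, beside 78.9% and 74.0% of all genes called. Without both dKO replicate 2 libraries, 75, 84, 64 and 33 members were called in the 4 comparisons. A fit on the 4 dKO libraries alone called 0 members with edgeR, although 47 had an unadjusted p under 0.05, whereas DESeq2 on all 8 libraries called 39. The text is therefore built on the calls that held without each of the 8 libraries in turn, 13 of 47, 15 of 64, 11 of 36 and 3 of 24 in the order of comparisons above. A call is said to hold where it is one of these, and for other calls that are named the libraries without which they were lost are given.

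Genotype calls were shared between untreated and cytokine-treated cells for 23 members higher and 6 lower in dKO, and none had opposite signs. These 29 are 61.7% of the members called without cytokines and 45.3% of those called with them, beside 74.3% and 50.3% over all genes called. Cytokine calls were shared between genotypes for 11 members higher and 4 lower, again none with opposite signs, which is 62.5% of the members called in dKO and 41.7% of those called in WT, beside 77.5% and 24.7% over all genes called. The genotype and cytokine comparisons share libraries with each other. Members were grouped by what their families mostly carry, with each family kept whole. The 28 called amino acid carriers here therefore include the creatine carrier Slc6a8 and the purine nucleobase carrier Slc43a3. Of these 28, 7 were higher and 4 lower in dKO against WT without cytokines and 8 higher and 3 lower with them. That is 39.3% in each, beside 23% and 34% of all genes. With cytokines against none 8 were higher and 1 lower in dKO and 6 higher and 3 lower in WT, which is 32.1% in each, beside 5.55% and 17.4% of all genes. Without dKO replicate 1 that had no cytokines, 1 amino acid carrier was higher with cytokines in dKO, and without either WT library that had no cytokines, 2 were higher in WT. Between genotypes, without either WT library with cytokines 3 were higher in dKO among treated cells, without WT replicate 1 with cytokines 0 were lower, and without WT replicate 1 that had no cytokines 0 were lower among untreated cells. Of 37 mitochondrial carriers, 5 were higher and 4 lower in dKO without cytokines, and 4 higher and 7 lower with them, or 24.3% and 29.7%, near the share of all genes. Without either WT library of the same treatment these were 0 higher and 1 lower among untreated cells, and without untreated dKO replicate 1 also 1 was lower. Among treated cells 1 was higher without WT replicate 1, WT replicate 2 or dKO replicate 1 of these, and 0 were lower without WT replicate 1. Of 23 carriers of transition metals and magnesium, 5 were higher and 1 lower with cytokines in WT, or 26.1%, beside 17.4% of all genes. With any 1 of the 4 WT libraries left out, fewer were higher. In dKO 0 of the 23 were called with cytokines, beside 5.55% of all genes.

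**Figure D1:**
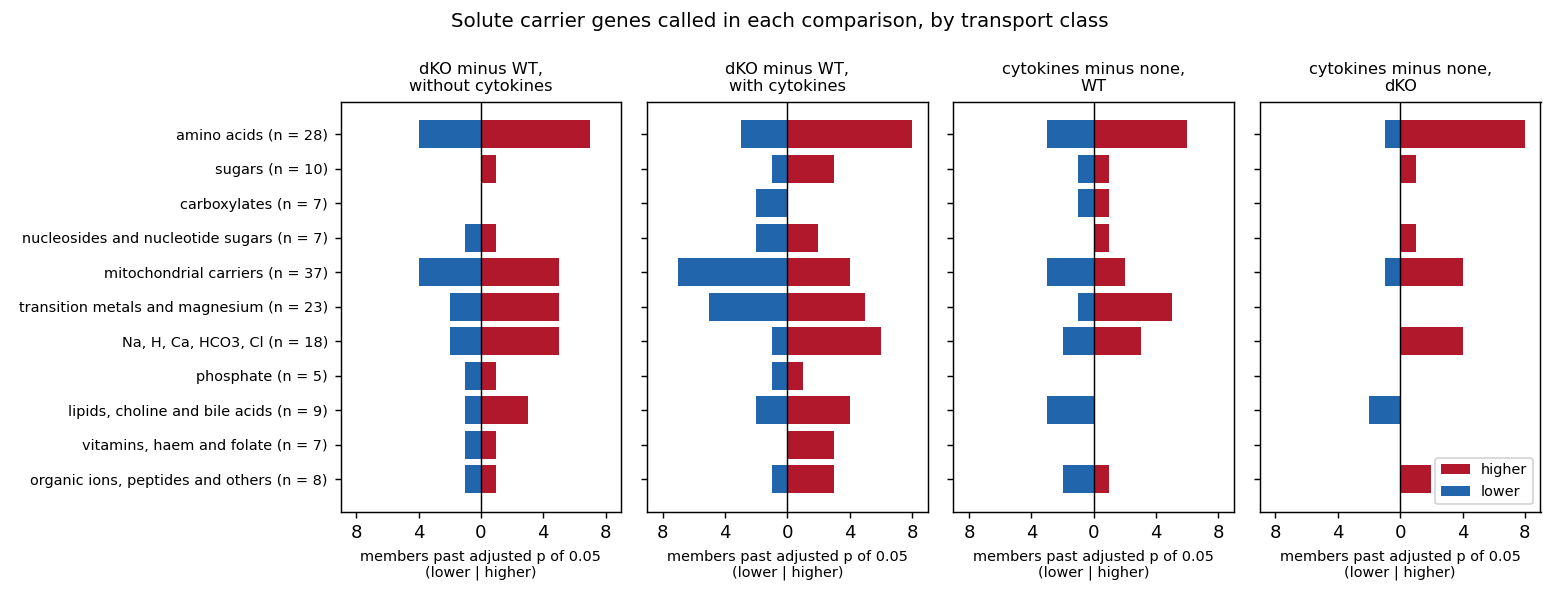
Number of solute carriers called higher (right of 0) or lower (left of 0) in each transport class, for each of the 4 comparisons, by edgeR at an adjusted p below 0.05. Amino acid carriers give up to 8 calls in 1 direction.

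Carriers of arginine and other cationic amino acids are described first. Slc7a2 (ENSMUSG00000031596, chromosome 8, 40862396 to 40922308, plus strand, GRCm38) encodes a carrier that brings in arginine, the substrate of nitric oxide synthases and arginases. Slc7a2 had 2868 and 2536 CPM in treated dKO, 338 and 244 in untreated dKO, 2032 and 1697 in treated WT and 61.04 and 41.97 in untreated WT. Treated dKO was highest, followed by treated WT, untreated dKO and untreated WT, with no overlap between neighbours. With cytokines it was 9.29-fold higher in dKO (3.22 ± 0.24, adjusted p = 0.00516) and 36.2-fold higher in WT (5.18 ± 0.24, adjusted p = 0.000913), and both calls held. Without cytokines it was 5.65-fold higher in dKO than in WT (2.498 ± 0.24, adjusted p = 0.00295), which also held. With cytokines the genotype difference was 0.54 ± 0.24 and did not pass (adjusted p = 0.123). The related Slc7a1 had 81.6 and 98.9 CPM in treated dKO, 79.01 and 86.2 in untreated dKO, 126 and 122 in treated WT and 89.3 and 89.4 in untreated WT, and Slc7a3 had 2.86 and 6.36 CPM in treated dKO, 1.16 and 3.24 in untreated dKO, 6.88 and 9.74 in treated WT and 9.60 and 14.3 in untreated WT. Slc7a1 was lower in dKO than in WT with cytokines (-0.46 ± 0.11, adjusted p = 0.0232), a call lost without each library other than treated dKO replicate 2, untreated dKO replicate 1 and untreated dKO replicate 2 (adjusted p of 0.0502 to 0.115). Slc7a3 was lower in dKO than in WT without cytokines (-2.43 ± 0.57, adjusted p = 0.0321), a call lost without each library other than treated dKO replicate 1, treated dKO replicate 2 and untreated dKO replicate 2 (adjusted p of 0.0564 to 0.134).

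Slc7a11 (ENSMUSG00000027737, chromosome 3, 49892526 to 50443614, minus strand) encodes the light chain of the exchanger that takes up cystine for glutathione synthesis in return for glutamate. Slc7a11 had 269 and 136 CPM in treated dKO, 8.27 and 15.1 in untreated dKO, 86.9 and 88.5 in treated WT and 7.46 and 6.17 in untreated WT. Every cytokine library was above every library without cytokines. The increase was 4.11 ± 0.39 in dKO (adjusted p = 0.0114) and 3.69 ± 0.39 in WT (adjusted p = 0.00552). In dKO it was lost without untreated dKO replicate 1 (adjusted p = 0.055), and in WT without untreated WT replicate 1 (adjusted p = 0.0533) and untreated WT replicate 2 (0.0547). The cystine exchanger did not pass between genotypes, with adjusted p = 0.0556 in cytokine-treated cells and adjusted p = 0.204 in untreated cells. Its heavy chain Slc3a2 had 232 and 181 CPM in treated dKO, 95.01 and 116 in untreated dKO, 179 and 166 in treated WT and 176 and 188 in untreated WT, so the untreated dKO libraries were the lowest. It was lower in dKO than in WT without cytokines (-0.79 ± 0.15, adjusted p = 0.0172), lost without untreated dKO replicate 1 (adjusted p = 0.0779), untreated WT replicate 1 (0.0818) and untreated WT replicate 2 (0.0957). With cytokines it was higher in dKO than without (0.97 ± 0.15, adjusted p = 0.0235), lost without each library other than treated dKO replicate 2 and untreated dKO replicate 2 (adjusted p of 0.0555 to 0.102), and the same comparison in WT was -0.08 ± 0.15 (adjusted p = 0.766).

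Light chains that pair with the same heavy chain for large neutral amino acids differed among themselves. Slc7a8 (ENSMUSG00000022180, chromosome 14, 54722209 to 54781946, minus strand) had 39.3 and 27.9 CPM in treated dKO, 3.75 and 3.87 in untreated dKO, 0.529 and 1.45 in treated WT and 0.111 and 0.135 in untreated WT. All 4 dKO libraries were above all 4 WT libraries, and it was near the detection limit in untreated WT cells. In dKO against WT it was 5.06 ± 0.41 higher with cytokines (adjusted p = 0.0017) and 4.89 ± 0.64 higher without them (adjusted p = 0.00401), and both calls held. It met the level rule in treated dKO alone, so these tests partly restate the rule. Within dKO it was higher with cytokines (3.14 ± 0.37, adjusted p = 0.0147), lost without treated dKO replicate 1 (adjusted p = 0.0606) and untreated dKO replicate 1 (0.0844). The WT increase of 2.97 ± 0.66 (adjusted p = 0.0205) started from 2 libraries near 0 and was lost without treated WT replicate 2 (adjusted p = 0.051), untreated WT replicate 1 (0.125) and untreated WT replicate 2 (0.113). Slc7a5, which carries leucine and other branched-chain and aromatic amino acids, went the other way between genotypes, with 25.7 and 33.7 CPM in treated dKO, 16.5 and 20.8 in untreated dKO, 57.6 and 53.99 in treated WT and 39.7 and 42.4 in untreated WT. It was lower in dKO without cytokines (-1.13 ± 0.17, adjusted p = 0.00817), lost without untreated WT replicate 1 (adjusted p = 0.0546) and untreated WT replicate 2 (0.0578). With cytokines it was also lower in dKO (-0.91 ± 0.17, adjusted p = 0.01), lost without treated WT replicate 1 (adjusted p = 0.0629). Slc7a6 had 65.4 and 62.99 CPM in untreated dKO cells and 37.96 and 40.7 CPM in untreated WT cells, and was higher in dKO (0.71 ± 0.08, adjusted p = 0.00471), which held. Slc7a7, which with its heavy chain exports cationic amino acids, had 35.3 and 43.99 CPM in treated dKO, 16 and 23.2 in untreated dKO, 74.4 and 65.1 in treated WT and 18.2 and 17.3 in untreated WT. It was higher with cytokines in WT (1.97 ± 0.20, adjusted p = 0.0036), which held, and in dKO (1.02 ± 0.20, adjusted p = 0.0406), which was lost without each library other than untreated dKO replicate 2 (adjusted p of 0.0797 to 0.122). Among cytokine-treated cells it was lower in dKO than in WT (-0.81 ± 0.20, adjusted p = 0.0225), lost without treated dKO replicate 1 (adjusted p = 0.11), treated WT replicate 1 (0.118) and treated WT replicate 2 (0.0635).

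Further calls among amino acid families came from facilitated, exchanging, sodium-coupled and proton-coupled carriers. Slc43a1, a carrier of branched-chain amino acids and phenylalanine, had 8.86 and 6.71 CPM in treated dKO, 20.3 and 21.99 in untreated dKO, 12.1 and 8.17 in treated WT and 81.4 and 54.4 in untreated WT. Untreated WT cells were highest, and both cytokine groups were low. It was lower with cytokines in WT (-2.75 ± 0.27, adjusted p = 0.00363), which held. The decreases in dKO with cytokines (-1.44 ± 0.27, adjusted p = 0.0379) and in dKO against WT without cytokines (-1.68 ± 0.26, adjusted p = 0.0103) did not hold. The first was lost without any 1 of the 8 libraries (adjusted p of 0.0544 to 0.129), and the second without untreated dKO replicate 1 (adjusted p = 0.0628) and untreated WT replicate 1 (0.0636). Its relative Slc43a2 had 310.3 and 258 CPM in treated dKO, 108 and 138 in untreated dKO, 187 and 161 in treated WT and 137 and 115 in untreated WT, and was higher with cytokines in dKO (1.21 ± 0.17, adjusted p = 0.0193), lost without treated dKO replicate 1 (adjusted p = 0.0796), untreated dKO replicate 1 (0.0855), untreated WT replicate 1 (0.0512) and untreated WT replicate 2 (0.051). Slc1a5, which exchanges glutamine and other neutral amino acids, had 124 and 82.6 CPM in treated dKO, 38.6 and 40.1 in untreated dKO, 85.7 and 75.3 in treated WT and 43.4 and 46.6 in untreated WT. Its cytokine libraries were above the untreated ones in both genotypes. The increase was 1.39 ± 0.19 in dKO (adjusted p = 0.0174), lost without untreated dKO replicate 1 (adjusted p = 0.0908), untreated dKO replicate 2 (0.0513), untreated WT replicate 1 (0.0553) and untreated WT replicate 2 (0.055), and 0.84 ± 0.19 in WT (adjusted p = 0.0286), lost without treated WT replicate 1 (adjusted p = 0.155), treated WT replicate 2 (0.0818), untreated WT replicate 1 (0.157) and untreated WT replicate 2 (0.125). Slc1a6, a glutamate carrier best known from the brain, was low everywhere and had 0.397 and 0.864 CPM in WT with cytokines and 5.54 and 7.92 CPM in WT without them. That decrease (-3.40 ± 0.60, adjusted p = 0.0162) was lost without treated WT replicate 1 (adjusted p = 0.103), treated WT replicate 2 (0.0567), untreated WT replicate 1 (0.0728) and untreated WT replicate 2 (0.0902).

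Slc36a2 (ENSMUSG00000020264, chromosome 11, 55158470 to 55185077, minus strand), a proton-coupled carrier of glycine and proline, was read almost only in dKO. It had 21.9 and 10.6 CPM in treated dKO, 3.75 and 1.79 in untreated dKO, 0.0441 and 0.0785 in treated WT and 0 and 0 in untreated WT. Over the group, untreated dKO had 127 counts and untreated WT had 0, so the level was at least 51.7-fold higher in dKO against a floor of 3 counts over the WT group. With cytokines dKO had 723 counts and WT had 3, a ratio of 260 with a 95% counting interval of 88.6 to 1263. Both genotype calls held (adjusted p = 0.00318 with cytokines, adjusted p = 0.00697 without), for a member that met the level rule in treated dKO alone. Slc6a8, the creatine carrier, had 71.4 and 59.7 CPM in treated dKO, 72.5 and 68.2 in untreated dKO, 23.7 and 24.5 in treated WT and 35.8 and 33.3 in untreated WT. Every dKO library was above every WT library, by 1.44 ± 0.11 with cytokines (adjusted p = 0.00127) and 1.03 ± 0.11 without them (adjusted p = 0.00373), and both calls held. The sodium-coupled glutamine carrier Slc38a2 had 159 and 257 CPM in treated dKO, 301 and 337 in untreated dKO, 298 and 306 in treated WT and 354 and 321 in untreated WT and passed in none of the 4 comparisons.

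Among 10 sugar carriers, Slc2a6 (ENSMUSG00000036067, chromosome 2, 27021363 to 27027998, minus strand), an intracellular member of the glucose transporter family, had the largest cytokine change on the log2 scale of all members called in WT. Slc2a6 had 9.09 and 7.91 CPM in treated dKO, 0.223 and 0.374 in untreated dKO, 41.7 and 26.2 in treated WT and 0.111 and 0.472 in untreated WT. It was under 1 CPM in every untreated library, so this fold rests on few counts in the untreated cells. With cytokines it was higher by 4.80 ± 0.59 in dKO (adjusted p = 0.0122), lost without treated dKO replicate 1 (adjusted p = 0.0505) and untreated dKO replicate 1 (0.0742), and by 6.81 ± 0.56 in WT (adjusted p = 0.00236), which held. Cytokine-treated dKO cells had less than cytokine-treated WT cells (-1.996 ± 0.41, adjusted p = 0.0158), a call lost without treated dKO replicate 1 (adjusted p = 0.0665), treated dKO replicate 2 (0.0552) and treated WT replicate 1 (0.101). Slc2a8, another intracellular family member, had 16.9 and 15.9 CPM in treated dKO, 25.4 and 19.8 in untreated dKO, 5.38 and 7.19 in treated WT and 16.8 and 17.6 in untreated WT. It was lower with cytokines in WT (-1.45 ± 0.19, adjusted p = 0.00618) and higher in dKO than in WT with cytokines (1.38 ± 0.19, adjusted p = 0.00451), and both calls held. The change with cytokines in dKO was -0.46 ± 0.18 and did not pass (adjusted p = 0.195). Slc45a4 had 46.8 and 52.2 CPM in treated dKO, 45.4 and 48.7 in untreated dKO, 11.02 and 15.5 in treated WT and 14.4 and 15.8 in untreated WT. All dKO libraries were above all WT libraries, by 1.90 ± 0.17 with cytokines (adjusted p = 0.00188) and 1.64 ± 0.17 without (adjusted p = 0.00343), and both calls held. Slc45a3 had 62.96 and 22.04 CPM in treated dKO, 87.1 and 33.5 in untreated dKO, 6.70 and 3.93 in treated WT and 16.5 and 8.93 in untreated WT, with replicate 1 of dKO well above replicate 2. Among treated cells dKO was higher (3.001 ± 0.70, adjusted p = 0.0277), lost without treated dKO replicate 1 (adjusted p = 0.114), treated WT replicate 1 (0.0991) and treated WT replicate 2 (0.135). Of its exon 50-mers 11.99% occur in another gene.

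**Figure D2:**
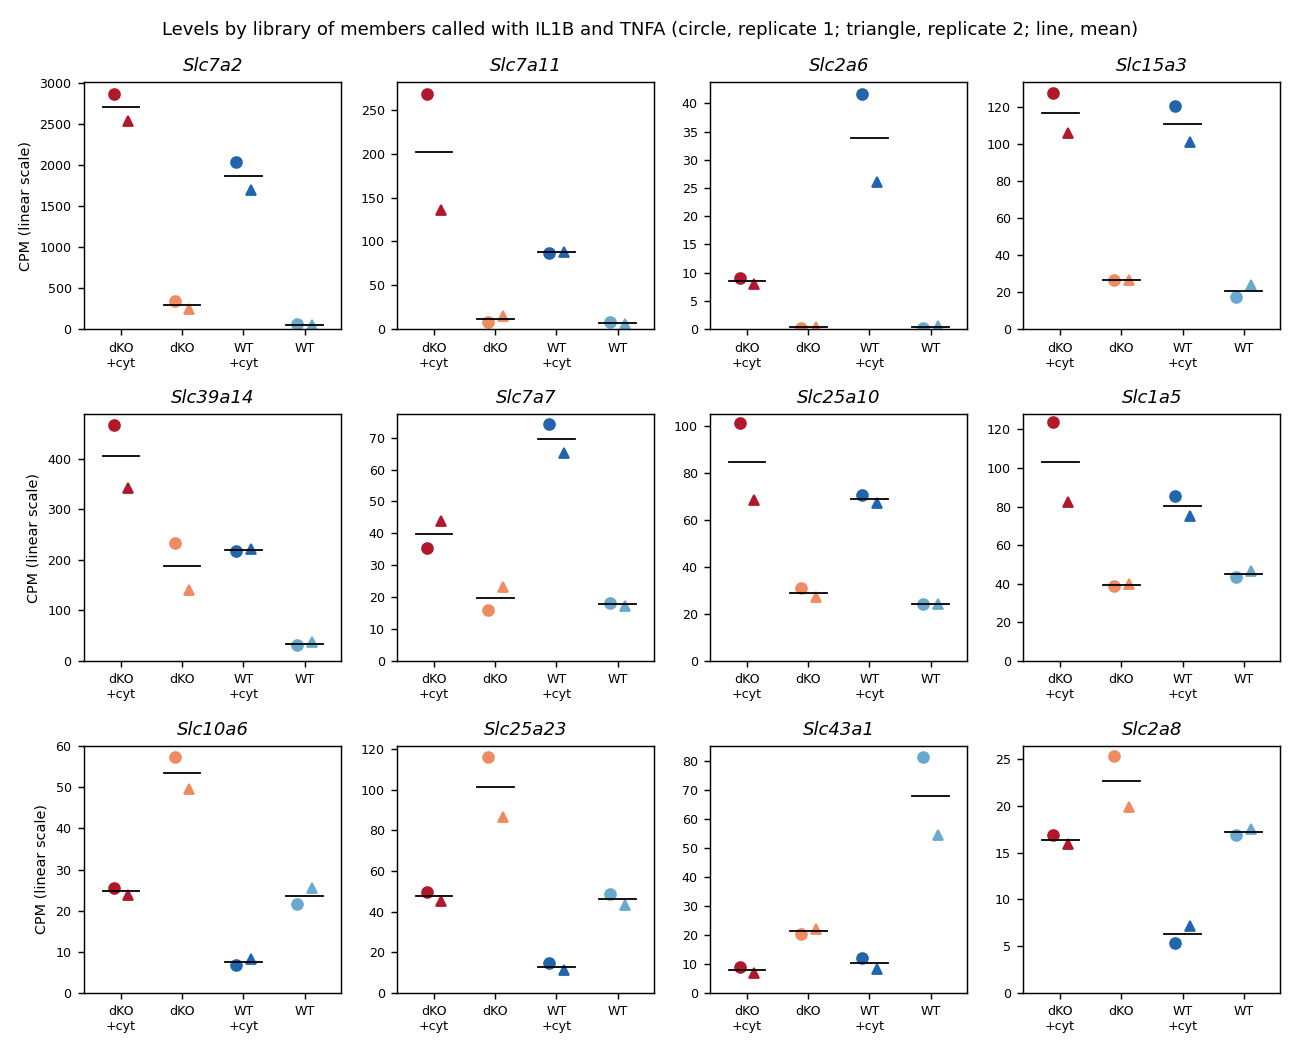
Level (CPM, linear axes that start at 0) of 12 solute carriers in each of the 8 libraries, 1 panel a gene, with the 2 replicates of each group as points and their mean as a line. Slc7a2, Slc7a11 and Slc15a3 are higher in each cytokine library than in any library without cytokines, and Slc10a6 is lower with cytokines within each genotype.

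Promoters were searched for motifs in the 11 carriers called higher with cytokines in both genotypes, and those of the 4 genes with a match are shown. The 11 were Slc7a2, Slc7a11, Slc7a8, Slc7a7, Slc1a5, Slc2a6, Slc15a3, Slc4a7, Slc25a10, Slc25a1 and Slc26a2. Promoters are 300 bases that end shortly after the gene start, are from RefSeq (GRCm38.p6), and were at hand for 7 of the 11. Only for Slc7a2 and Slc15a3 did the cytokine calls hold in both genotypes, and neither is among these 7. The motif counts therefore describe genes whose calls depend on single libraries in at least 1 genotype. Both strands were searched for the NF-kB consensus, for TGATGCAA, the composite element bound by ATF4, for the interferon-stimulated element, for the ETS site CCGGAAGT and for the AP-1 site TGANTCA. In the sequences shown, no match of 1 motif overlapped a match of another. The NF-kB consensus was in 3 of the 7 genes and not in Slc2a6, Slc4a7, Slc7a8 or Slc7a11, beside 5.14% of 27025 genes with a promoter. TGATGCAA was in Slc7a11 and Slc7a7, beside 1.03% of genes. The interferon element, the ETS site and the AP-1 site were in 0 of the 7, beside 3.99%, 4.31% and 8.97% of genes. Over the 120 members with a promoter, the NF-kB consensus was in 9, TGATGCAA in 4, the interferon element in 3, the ETS site in 6 and the AP-1 site in 7. A match describes letters only. The first 3 sequences have the NF-kB match in capitals and the last has TGATGCAA, which starts 66 bases before the gene start on one strand and 47 bases before it on the other. The Slc7a7 sequence also holds TGATGCAA, near its start and in lower case. Slc7a7 has 5 promoters in RefSeq, of which 2 overlapping ones hold the NF-kB match and 1 of these is shown.
Slc25a1 (chr16:17928170-17928469, minus strand): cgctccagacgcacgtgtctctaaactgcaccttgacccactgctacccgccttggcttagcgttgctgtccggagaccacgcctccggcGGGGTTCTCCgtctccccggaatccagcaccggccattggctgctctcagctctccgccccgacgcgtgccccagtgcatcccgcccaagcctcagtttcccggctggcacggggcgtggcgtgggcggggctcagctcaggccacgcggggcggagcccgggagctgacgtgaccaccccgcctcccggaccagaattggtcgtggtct
Slc25a10 (chr11:120491587-120491886, plus strand): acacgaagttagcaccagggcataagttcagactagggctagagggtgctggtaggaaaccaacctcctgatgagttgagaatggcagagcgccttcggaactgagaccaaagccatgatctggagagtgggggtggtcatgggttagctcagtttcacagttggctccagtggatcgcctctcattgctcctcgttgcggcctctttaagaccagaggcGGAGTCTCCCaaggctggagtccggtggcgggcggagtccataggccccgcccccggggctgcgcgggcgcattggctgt
Slc7a7 (chr14:54417653-54417952, minus strand): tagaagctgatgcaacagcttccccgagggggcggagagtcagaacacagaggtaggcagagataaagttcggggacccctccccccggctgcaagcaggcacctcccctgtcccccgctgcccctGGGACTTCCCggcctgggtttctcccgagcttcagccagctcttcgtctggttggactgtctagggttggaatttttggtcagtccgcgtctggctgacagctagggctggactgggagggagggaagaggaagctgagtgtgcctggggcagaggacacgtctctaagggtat
Slc7a11 (chr3:50443564-50443863, minus strand): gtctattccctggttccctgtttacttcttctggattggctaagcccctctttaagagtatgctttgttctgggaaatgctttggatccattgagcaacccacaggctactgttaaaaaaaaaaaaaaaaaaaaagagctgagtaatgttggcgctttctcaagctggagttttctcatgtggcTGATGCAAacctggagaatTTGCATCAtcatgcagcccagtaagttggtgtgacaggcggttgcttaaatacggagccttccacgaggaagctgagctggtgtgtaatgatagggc

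Among the 23 metal and magnesium carriers, the calls that held were of 2 importers of the Slc39 family. Slc39a14 (ENSMUSG00000022094, chromosome 14, 70303469 to 70351425, minus strand) brings in zinc, manganese and iron, and in liver is known to be induced by inflammatory signals. Slc39a14 had 466 and 343 CPM in treated dKO, 233 and 141 in untreated dKO, 217 and 221 in treated WT and 31.1 and 37.5 in untreated WT. Untreated WT cells were lowest. It was 6.37-fold higher with cytokines in WT (2.67 ± 0.26, adjusted p = 0.00375) and 5.45-fold higher in dKO than in WT without cytokines (2.45 ± 0.26, adjusted p = 0.00426), and both calls held. In dKO the cytokine change of 1.11 ± 0.26 did not pass (adjusted p = 0.065). With cytokines the genotype difference of 0.89 ± 0.26 passed (adjusted p = 0.0421) and was lost without each library other than treated dKO replicate 2, untreated dKO replicate 1 and untreated dKO replicate 2 (adjusted p of 0.0673 to 0.184). Slc39a6, a zinc importer, had 158 and 127 CPM in treated dKO, 143 and 106 in untreated dKO, 69.1 and 74.1 in treated WT and 39.5 and 42.7 in untreated WT. Every dKO library was above every WT library, by 1.60 ± 0.17 without cytokines (adjusted p = 0.00371), which held, and by 0.99 ± 0.17 with cytokines (adjusted p = 0.00822), lost without treated WT replicate 1 (adjusted p = 0.0577). Slc39a8, the closest relative of Slc39a14, was lower with cytokines in WT, at 4.89 and 5.07 CPM with them and 17.5 and 13.2 CPM without (-1.63 ± 0.22, adjusted p = 0.00734), lost without treated WT replicate 1 (adjusted p = 0.0592) and untreated WT replicate 1 (0.0565). In dKO it had 13.8 and 10.2 CPM with cytokines and 20.4 and 16.8 CPM without, and that change did not pass (adjusted p = 0.145).

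The magnesium carriers Slc41a1 and Slc41a2 differed between genotypes in opposite directions. Slc41a1 had 150.3 and 123 CPM in treated dKO, 163 and 123 in untreated dKO, 59.4 and 70.6 in treated WT and 66.5 and 68.1 in untreated WT, and was higher in dKO with cytokines (1.07 ± 0.17, adjusted p = 0.00667) and without them (1.09 ± 0.17, adjusted p = 0.00953). The call with cytokines was lost without treated WT replicate 1 (adjusted p = 0.0504), and the call without them was lost without untreated WT replicate 1 (adjusted p = 0.0734) and untreated WT replicate 2 (0.0687). Slc41a2 had 42.6 and 60.2 CPM in treated dKO, 43.5 and 46.2 in untreated dKO, 114 and 102 in treated WT and 68.7 and 56.3 in untreated WT, and was lower in dKO with cytokines (-1.07 ± 0.18, adjusted p = 0.00795), lost without treated WT replicate 1 (adjusted p = 0.0553). Its difference without cytokines was -0.48 ± 0.18 (adjusted p = 0.0992). Slc39a1, the most abundant of the metal class per kilobase, had 238 and 192 CPM in treated dKO, 243 and 186 in untreated dKO, 194 and 180.3 in treated WT and 147 and 153 in untreated WT and passed in none of the 4 comparisons. Its level is uncertain because 21.8% of its exon 50-mers occur in a pseudogene, and that of Slc39a7 because 74.5% occur in another gene model.

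Among 18 carriers of sodium, protons, calcium, bicarbonate and chloride, Slc4a3 (ENSMUSG00000006576, chromosome 1, 75546266 to 75562172, plus strand), a chloride and bicarbonate exchanger, had the smallest genotype p of all members without cytokines. Slc4a3 had 38.6 and 39.98 CPM in treated dKO, 39.3 and 36.6 in untreated dKO, 9.97 and 8.99 in treated WT and 6.24 and 7.75 in untreated WT. The replicates lay close together and every dKO library was above every WT library. It was 4.14-fold higher in dKO with cytokines (2.05 ± 0.13, adjusted p = 0.000982) and 5.42-fold higher without (2.44 ± 0.13, adjusted p = 0.000773), and both calls held. The sodium bicarbonate cotransporter Slc4a4 had 4.63 and 2.56 CPM in treated dKO, 8.89 and 6.11 in untreated dKO, 0.265 and 0.353 in treated WT and 0.295 and 0.674 in untreated WT. Its WT libraries were all under 1 CPM, and dKO was higher by 3.51 ± 0.54 with cytokines (adjusted p = 0.00595) and 3.93 ± 0.49 without (adjusted p = 0.00568), and both calls held. Slc4a4 met the level rule in untreated dKO alone. A second sodium bicarbonate cotransporter, Slc4a7, was higher with cytokines and had 80.04 and 65.6 CPM in treated dKO, 26.3 and 30.1 in untreated dKO, 50.8 and 56.3 in treated WT and 29.5 and 29.6 in untreated WT. It was higher with cytokines in dKO (1.37 ± 0.13, adjusted p = 0.00664), which held, and in WT (0.86 ± 0.13, adjusted p = 0.00954), lost without treated WT replicate 2 (adjusted p = 0.0553), untreated WT replicate 1 (0.0786) and untreated WT replicate 2 (0.0734).

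Slc12a5, a potassium chloride cotransporter best known from neurons, had 12.6 and 11.2 CPM in treated dKO, 4.51 and 5.16 in untreated dKO, 1.81 and 1.92 in treated WT and 2.14 and 2.60 in untreated WT. Among treated cells it was higher in dKO (2.67 ± 0.21, adjusted p = 0.00127), which held, and treated dKO is the only group in which it met the level rule. Without cytokines its genotype difference of 1.03 ± 0.20 (adjusted p = 0.0181) was lost without untreated dKO replicate 1 (adjusted p = 0.054), untreated WT replicate 1 (0.107) and untreated WT replicate 2 (0.0713), and its cytokine increase in dKO of 1.30 ± 0.20 (adjusted p = 0.0229) was lost without each library other than treated dKO replicate 2 (adjusted p of 0.0532 to 0.105). The sodium calcium exchanger Slc8a1 had 72.7 and 34.1 CPM in treated dKO, 12.7 and 9.44 in untreated dKO, 24.8 and 14.96 in treated WT and 5.39 and 2.49 in untreated WT. Cytokine libraries were above untreated ones in both genotypes. The change was 2.27 ± 0.50 in dKO, which did not pass (adjusted p = 0.0644), and 2.34 ± 0.52 in WT, which passed (adjusted p = 0.0345) and was lost without each library other than treated dKO replicate 1 and treated dKO replicate 2 (adjusted p of 0.0513 to 0.162). Slc4a2, a chloride and bicarbonate exchanger of most cells, had 51.3 and 71.96 CPM in treated dKO, 68.2 and 72.9 in untreated dKO, 127 and 98.01 in treated WT and 80.7 and 84.3 in untreated WT and was lower in treated dKO than in treated WT (-0.87 ± 0.19, adjusted p = 0.016), lost without treated dKO replicate 1 (adjusted p = 0.0613) and treated WT replicate 1 (0.092). Its exons overlap those of Fastk over 13.7% of their bases.

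Of the 37 mitochondrial carriers, the calcium-regulated ATP-Mg and phosphate carrier Slc25a23 and the ADP/ATP carrier Slc25a5 gave calls that held. Slc25a23 had 49.8 and 45.2 CPM in treated dKO, 116 and 86.5 in untreated dKO, 14.6 and 11.2 in treated WT and 48.7 and 43.3 in untreated WT. It was lower with cytokines within each genotype and higher in dKO within each treatment. The cytokine decrease was -1.09 ± 0.18 in dKO (adjusted p = 0.0272), lost without each library other than untreated dKO replicate 2, treated WT replicate 1 and treated WT replicate 2 (adjusted p of 0.0698 to 0.102), and -1.84 ± 0.19 in WT (adjusted p = 0.00363), which held. The genotype difference was 1.89 ± 0.19 with cytokines (adjusted p = 0.00232), which held, and 1.14 ± 0.18 without (adjusted p = 0.0103), lost without untreated WT replicate 1 (adjusted p = 0.0654) and untreated WT replicate 2 (0.0766). Slc25a5 had 178 and 153 CPM in treated dKO, 92.5 and 113 in untreated dKO, 282 and 261 in treated WT and 198 and 205 in untreated WT, lower in dKO within each treatment. Without cytokines the difference of -0.98 ± 0.13 (adjusted p = 0.00617) held, and with them that of -0.72 ± 0.13 (adjusted p = 0.00978) was lost without treated WT replicate 1 (adjusted p = 0.0653). Its counts are uncertain, since 33.8% of its exon 50-mers also occur in other genes, pseudogenes among them. The second ADP/ATP carrier, Slc25a4, had 317 and 282 CPM in treated dKO, 358 and 289 in untreated dKO, 267 and 251 in treated WT and 286 and 297 in untreated WT and passed in none of the 4 comparisons.

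Slc25a10, the dicarboxylate carrier, had 101 and 68.6 CPM in treated dKO, 30.9 and 27.2 in untreated dKO, 70.6 and 67.3 in treated WT and 24.1 and 24.2 in untreated WT. Every cytokine library was above every untreated library, by 1.55 ± 0.18 in dKO (adjusted p = 0.0124) and 1.51 ± 0.18 in WT (adjusted p = 0.00501). The dKO call was lost without untreated dKO replicate 1 (adjusted p = 0.0556), and the WT call without untreated WT replicate 1 (adjusted p = 0.0558) and untreated WT replicate 2 (0.0508). Slc25a1, the citrate carrier, had 214 and 160.4 CPM in treated dKO, 109.9 and 90.6 in untreated dKO, 157 and 126 in treated WT and 71.9 and 75.1 in untreated WT. It was higher with cytokines by 0.90 ± 0.18 in dKO (adjusted p = 0.0426), lost without each library other than treated dKO replicate 2 (adjusted p of 0.0693 to 0.147), and by 0.95 ± 0.18 in WT (adjusted p = 0.0186), lost without treated WT replicate 1 (adjusted p = 0.113), untreated WT replicate 1 (0.122) and untreated WT replicate 2 (0.103). Another dicarboxylate carrier, Slc25a11, which exchanges oxoglutarate for malate, had 77.1 and 81.2 CPM in treated dKO, 84.3 and 82.1 in untreated dKO, 96.6 and 90.9 in treated WT and 104 and 106 in untreated WT and did not pass with cytokines in dKO (-0.07 ± 0.08, adjusted p = 0.653) or in WT (-0.16 ± 0.08, adjusted p = 0.214). Slc25a37, which brings iron into mitochondria, had 257 and 262 CPM in treated dKO, 134 and 153 in untreated dKO, 167 and 149 in treated WT and 154 and 118 in untreated WT and was higher with cytokines in dKO (0.85 ± 0.15, adjusted p = 0.0286), lost without each library other than untreated WT replicate 1 and untreated WT replicate 2 (adjusted p of 0.0552 to 0.138). Slc25a34 and Slc25a35 are related carriers, and Slc25a34 had 4.77 and 2.47 CPM in treated dKO, 18.3 and 8.19 in untreated dKO, 0.485 and 0.668 in treated WT and 2.22 and 1.35 in untreated WT. It was higher in dKO without cytokines (2.89 ± 0.50, adjusted p = 0.0146), lost without untreated dKO replicate 1 (adjusted p = 0.0572), untreated WT replicate 1 (0.073) and untreated WT replicate 2 (0.0967), and with them (2.63 ± 0.57, adjusted p = 0.0163), lost without treated dKO replicate 1 (adjusted p = 0.0719), treated WT replicate 1 (0.0977) and treated WT replicate 2 (0.0707). Slc25a35 had 5.91 and 4.15 CPM in treated dKO, 6.70 and 7.48 in untreated dKO, 4.23 and 4.95 in treated WT and 14.1 and 16.8 in untreated WT, and its decrease with cytokines in WT of -1.75 ± 0.22 (adjusted p = 0.00615) was lost without treated WT replicate 1 (adjusted p = 0.0512) and untreated WT replicate 2 (0.0522).

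Among 9 carriers of lipids, choline and bile acids, the fatty acid transport protein Slc27a1 had 44.9 and 42.3 CPM in treated dKO, 61.6 and 53.2 in untreated dKO, 16.1 and 15.8 in treated WT and 31.8 and 28.8 in untreated WT. It was higher in dKO by 1.45 ± 0.11 with cytokines (adjusted p = 0.00127) and 0.92 ± 0.11 without (adjusted p = 0.00482), and both calls held. With cytokines it was lower in WT (-0.92 ± 0.11, adjusted p = 0.00502), which also held. Slc10a6, a carrier of sulfated steroids, had 25.6 and 23.9 CPM in treated dKO, 57.5 and 49.7 in untreated dKO, 6.70 and 8.29 in treated WT and 21.7 and 25.6 in untreated WT. It was lower with cytokines in both genotypes, with log2 changes of -1.11 ± 0.15 in dKO (adjusted p = 0.017) and -1.66 ± 0.15 in WT (adjusted p = 0.0028). The WT decrease held, and the dKO decrease was lost without treated dKO replicate 1 (adjusted p = 0.0655) and untreated dKO replicate 1 (0.0761). In dKO against WT it was higher by 1.72 ± 0.15 with cytokines (adjusted p = 0.00177), which held, and 1.18 ± 0.15 without (adjusted p = 0.00544), lost without untreated WT replicate 1 (adjusted p = 0.0522). Slc44a2, a choline carrier, had 309 and 283 CPM in treated dKO, 505 and 423 in untreated dKO, 196 and 184 in treated WT and 280.2 and 275 in untreated WT. Its cytokine decrease was -0.65 ± 0.12 in dKO (adjusted p = 0.0325), lost without each library other than untreated dKO replicate 2 (adjusted p of 0.0755 to 0.114), and -0.55 ± 0.12 in WT (adjusted p = 0.0255), lost without treated WT replicate 1 (adjusted p = 0.107), treated WT replicate 2 (0.136), untreated WT replicate 1 (0.13) and untreated WT replicate 2 (0.117). Slc10a3, of unknown substrate, had 20.3 and 22.7 CPM in treated dKO, 19.3 and 16.5 in untreated dKO, 28.9 and 30.2 in treated WT and 33.6 and 31.3 in untreated WT and was lower in dKO without cytokines (-0.86 ± 0.12, adjusted p = 0.00678), lost without untreated WT replicate 1 (adjusted p = 0.0595). Its exons overlap those of Ubl4a on the same strand over 12.8% of their bases.

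Carriers of phosphate, haem and vitamins gave several genotype calls that held. Slc20a2, a sodium phosphate cotransporter, had 72.4 and 68.2 CPM in treated dKO, 59.8 and 66.5 in untreated dKO, 37.04 and 34.2 in treated WT and 32.4 and 31.9 in untreated WT. It was 1.97-fold higher in dKO with cytokines (adjusted p = 0.00211) and 1.96-fold higher without (adjusted p = 0.0027), and both calls held. Slc37a1, a glucose 6-phosphate and phosphate exchanger of the endoplasmic reticulum, had 2.18 and 6.36 CPM in treated dKO, 2.82 and 6.53 in untreated dKO, 44.9 and 34.4 in treated WT and 25.5 and 26.7 in untreated WT. All dKO libraries were under all WT libraries. The difference with cytokines was -3.21 ± 0.55 (adjusted p = 0.011), lost without treated WT replicate 1 (adjusted p = 0.0579). Without cytokines the difference was -2.48 ± 0.54 (adjusted p = 0.0293), lost without each library other than treated dKO replicate 1, treated dKO replicate 2 and untreated dKO replicate 2 (adjusted p of 0.0563 to 0.118). Slc48a1 (ENSMUSG00000081534, chromosome 15, 97778520 to 97792692, plus strand) moves haem out of lysosomes and endosomes. It had 644 and 303 CPM in treated dKO, 202 and 159 in untreated dKO, 64.3 and 61.6 in treated WT and 79.4 and 83.1 in untreated WT. Every dKO library was above every WT library. The difference with cytokines was 2.91 ± 0.33 (adjusted p = 0.00388), which held, and without them 1.15 ± 0.33, which did not pass (adjusted p = 0.0541). Slc19a2, a thiamine carrier, had 40.7 and 36.5 CPM in treated dKO, 40.9 and 43.4 in untreated dKO, 18.5 and 21.6 in treated WT and 21.7 and 27.1 in untreated WT, and was higher in dKO with cytokines (0.95 ± 0.14, adjusted p = 0.00604), which held, and without (0.79 ± 0.14, adjusted p = 0.0145), lost without untreated dKO replicate 1 (adjusted p = 0.0503) and untreated WT replicate 1 (0.0884).

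**Figure D3:**
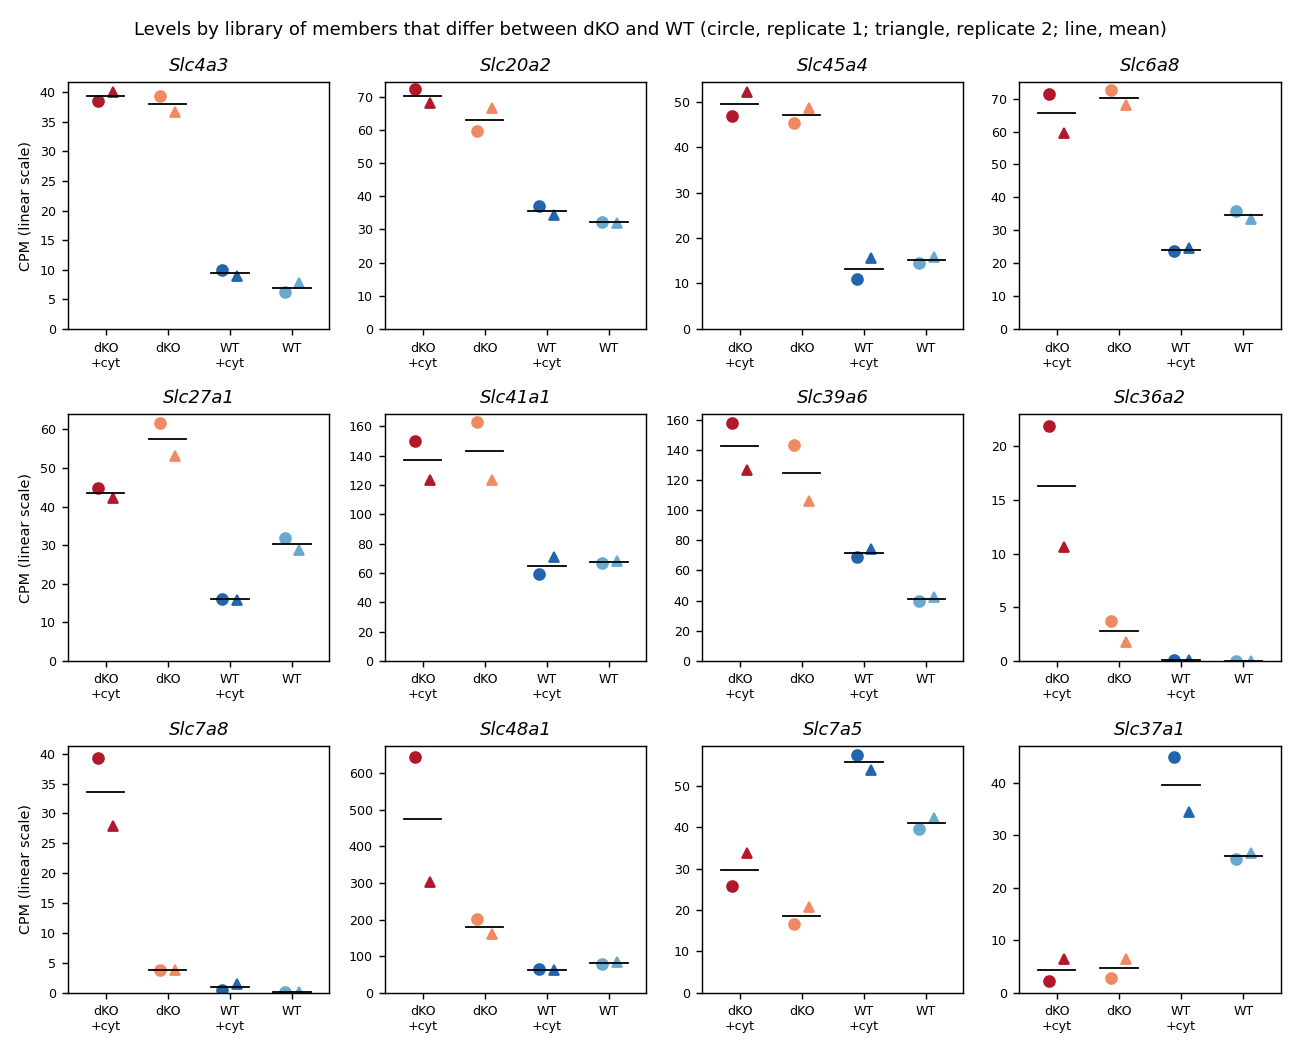
Level (CPM, linear axes that start at 0) of 12 solute carriers chosen for their genotype differences, in each of the 8 libraries, 1 panel a gene, with the 2 replicates of each group as points and their mean as a line. Slc4a3, Slc20a2, Slc45a4 and Slc6a8 are higher in each dKO library than in any WT library, and Slc37a1 is lower.

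Carriers of peptides and organic ions gave 1 of the 3 calls that held in the cytokine comparison of dKO. Slc15a3 (ENSMUSG00000024737, chromosome 19, 10839727 to 10859362, plus strand) moves histidine and small peptides out of lysosomes and is known for its part in innate immune signalling. Slc15a3 had 128 and 106 CPM in treated dKO, 26.2 and 26.6 in untreated dKO, 121 and 101 in treated WT and 17.4 and 23.5 in untreated WT. With cytokines it was 4.42-fold higher in dKO (adjusted p = 0.0053) and 5.41-fold higher in WT (adjusted p = 0.00165), and both calls held. Its exons overlap those of Tmem132a on the opposite strand over 28.1% of their bases, and the strand of the counting is not stated. Slc22a17, a cell surface receptor for lipocalin 2, had 23.7 and 20.3 CPM in treated dKO, 33.2 and 27.4 in untreated dKO, 7.01 and 7.93 in treated WT and 20.2 and 17.4 in untreated WT. It was lower with cytokines in WT (-1.33 ± 0.16, adjusted p = 0.00486) and higher in dKO than in WT with cytokines (1.56 ± 0.16, adjusted p = 0.00241), and both calls held. Lcn2, which encodes lipocalin 2, was higher in dKO than in WT without cytokines (3.24 ± 0.33, adjusted p = 0.00401), which held. In WT it was higher with cytokines, opposite to Slc22a17 (1.52 ± 0.33, adjusted p = 0.0288), a call lost without any 1 of the WT libraries. In dKO its cytokine change was 0.22 ± 0.33 and did not pass (adjusted p = 0.755). Slc22a23, of unknown substrate, had 246 and 131 CPM in treated dKO, 30.8 and 39 in untreated dKO, 41.9 and 59.3 in treated WT and 35.9 and 36.4 in untreated WT, so dKO cells with cytokines stood above the other 3 groups. It was higher with cytokines in dKO (2.43 ± 0.32, adjusted p = 0.0199), lost without untreated dKO replicate 1 (adjusted p = 0.103), untreated dKO replicate 2 (0.0531), untreated WT replicate 1 (0.0568) and untreated WT replicate 2 (0.0566). Slc22a5, the carnitine carrier, had 17.1 and 14.9 CPM in treated dKO, 19.9 and 16.2 in untreated dKO, 18.9 and 19.1 in treated WT and 28.2 and 27.7 in untreated WT and was lower in dKO without cytokines (-0.63 ± 0.14, adjusted p = 0.0223), lost without untreated dKO replicate 2 (adjusted p = 0.0578), untreated WT replicate 1 (0.112) and untreated WT replicate 2 (0.102). Of its exon 50-mers 26.3% occur in other genes, Slc22a21 among them.

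Nucleoside, nucleotide sugar and carboxylate carriers gave 0 calls that held. Slc29a1, the equilibrative nucleoside carrier that takes up adenosine, had 44.3 and 48.6 CPM in treated dKO, 41.5 and 48.2 in untreated dKO, 36.1 and 36.2 in treated WT and 28.1 and 29.1 in untreated WT and was higher in dKO without cytokines (0.65 ± 0.11, adjusted p = 0.011), lost without untreated WT replicate 1 (adjusted p = 0.0811) and untreated WT replicate 2 (0.0695). Slc35a2, which brings UDP-galactose into the Golgi, had 62.2 and 64.8 CPM in treated dKO, 44.96 and 46.5 in untreated dKO, 46.4 and 44.9 in treated WT and 36.7 and 39.4 in untreated WT. Treated dKO was above treated WT (0.47 ± 0.08, adjusted p = 0.00908), lost without treated WT replicate 1 (adjusted p = 0.0517) and treated WT replicate 2 (0.0576). Slc16a6, a monocarboxylate carrier, had 2.18 and 4.42 CPM in treated dKO, 2.59 and 4.95 in untreated dKO, 9.35 and 8.13 in treated WT and 11.5 and 9.14 in untreated WT. It was lower in dKO than in WT with cytokines (-1.40 ± 0.42, adjusted p = 0.0435), lost without each library other than treated dKO replicate 2, untreated dKO replicate 1 and untreated dKO replicate 2 (adjusted p of 0.0738 to 0.165), and 21.5% of its exon bases overlap Amz2. Slc15a2, the member nearest to the level rule, had 0.0909 and 4.55 CPM in treated dKO, 0.581 and 4.20 in untreated dKO, 3.18 and 28.6 in treated WT and 4.47 and 22.2 in untreated WT. Its replicate 2 was above its replicate 1 in each of the 4 groups, the groups overlapped and it passed in none of the 4 comparisons. Slc39a7 had 5.77 and 5.61 CPM in treated dKO, 2.99 and 5.28 in untreated dKO, 5.25 and 5.42 in treated WT and 4.14 and 3.78 in untreated WT, and Slc41a3 had 4.18 and 5.21 CPM in treated dKO, 7.28 and 5.11 in untreated dKO, 3.09 and 4.67 in treated WT and 3.18 and 4.55 in untreated WT, and neither passed in any of the 4. The rule used plain library totals, and the CPM printed per library use TMM-scaled totals, which differ slightly. Of the genes just outside the rule, Slc12a8 had 2.73 and 2.61 CPM in treated dKO, 5.05 and 4.12 in untreated dKO, 3.79 and 3.81 in treated WT and 5.24 and 4.52 in untreated WT. Slc44a3 had 2.36 and 0.663 CPM in treated dKO, 9.43 and 4.53 in untreated dKO, 0.0882 and 0.118 in treated WT and 0.148 and 0.236 in untreated WT, and Slc16a9 had 5.04 and 5.65 CPM in treated dKO, 4.16 and 6.53 in untreated dKO, 0.485 and 0.550 in treated WT and 2.88 and 4.92 in untreated WT. In all, 97 of the 159 members were called in at least 1 of the 4 comparisons and 62 in none. The share of all genes called in at least 1 comparison was not counted, so these numbers only describe the list.

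Other members of these classes were named by level or by the smallest p of their class. Slc50a1, a sugar carrier, had 73.6 and 74.9 CPM in treated dKO, 70.9 and 71.1 in untreated dKO, 75.7 and 66.7 in treated WT and 85.04 and 79.9 in untreated WT. Slc12a4, a potassium chloride cotransporter, had 132 and 139.8 CPM in treated dKO, 121 and 124 in untreated dKO, 112 and 92.8 in treated WT and 93.8 and 103 in untreated WT. The mitochondrial phosphate carrier Slc25a3 had 284 and 313 CPM in treated dKO, 340.5 and 389.8 in untreated dKO, 406 and 414 in treated WT and 470.1 and 474 in untreated WT, and was lower in treated dKO than in treated WT (-0.46 ± 0.11, adjusted p = 0.0208), lost without treated dKO replicate 1 (adjusted p = 0.0958), treated WT replicate 1 (0.0987) and treated WT replicate 2 (0.0971). Slc25a25, a relative of Slc25a23, had 36.4 and 59.9 CPM in treated dKO, 29.9 and 42.8 in untreated dKO, 106 and 102 in treated WT and 52.5 and 57.6 in untreated WT. It went the other way between genotypes, being lower in treated dKO than in treated WT (-1.11 ± 0.26, adjusted p = 0.0221), lost without treated dKO replicate 1 (adjusted p = 0.066), treated WT replicate 1 (0.097) and treated WT replicate 2 (0.0775). Slc25a24, another relative of Slc25a23, had 36.2 and 40.9 CPM in treated dKO, 55.9 and 44.1 in untreated dKO, 38.9 and 37.9 in treated WT and 28.8 and 24.6 in untreated WT and was higher in untreated dKO than in untreated WT (0.90 ± 0.15, adjusted p = 0.0107), lost without untreated WT replicate 1 (adjusted p = 0.0552) and untreated WT replicate 2 (0.0751). Slc25a17, a carrier of cofactors in peroxisomes, had 84.99 and 65.99 CPM in treated dKO, 104 and 70.6 in untreated dKO, 45.8 and 51.1 in treated WT and 37.7 and 39.4 in untreated WT. It was higher in untreated dKO than in untreated WT (1.18 ± 0.20, adjusted p = 0.0129), lost without untreated WT replicate 1 (adjusted p = 0.0894) and untreated WT replicate 2 (0.0781). Slc25a45 had 6.90 and 12.01 CPM in treated dKO, 8.09 and 13.6 in untreated dKO, 20.8 and 22.9 in treated WT and 28.4 and 28.3 in untreated WT, and was lower in untreated dKO (-1.39 ± 0.31, adjusted p = 0.0276), lost without each library other than treated dKO replicate 1, treated dKO replicate 2 and untreated dKO replicate 2 (adjusted p of 0.053 to 0.114).

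Slc17a5, which exports sialic acid from lysosomes, had 21.7 and 16.9 CPM in treated dKO, 26.99 and 21.1 in untreated dKO, 15.1 and 13.2 in treated WT and 25.2 and 24.3 in untreated WT. It was lower in treated than in untreated WT (-0.81 ± 0.18, adjusted p = 0.0281), lost without treated WT replicate 1 (adjusted p = 0.0992), treated WT replicate 2 (0.139), untreated WT replicate 1 (0.138) and untreated WT replicate 2 (0.117). Slc17a9, the vesicular carrier of ATP, had 12.3 and 14.7 CPM in treated dKO, 5.41 and 8.65 in untreated dKO, 15.2 and 13.3 in treated WT and 8.46 and 6.91 in untreated WT and did not pass with cytokines in dKO (adjusted p = 0.0888). Slc35a3, which carries UDP-N-acetylglucosamine into the Golgi, had 58.96 and 68.9 CPM in treated dKO, 45.2 and 49.9 in untreated dKO, 88.5 and 102 in treated WT and 65.5 and 65.6 in untreated WT. Its WT libraries were higher with cytokines (0.54 ± 0.12, adjusted p = 0.0267), lost without treated WT replicate 1 (adjusted p = 0.08), treated WT replicate 2 (0.13), untreated WT replicate 1 (0.14) and untreated WT replicate 2 (0.134). Slc35a4 had 69.5 and 68.9 CPM in treated dKO, 67.3 and 65.6 in untreated dKO, 95.2 and 86.5 in treated WT and 79.2 and 80.5 in untreated WT. The phosphate family members Slc20a1 and Slc37a3 did not pass with cytokines, and Slc20a1 had 40.3 and 37.7 CPM in treated dKO, 12.5 and 26.2 in untreated dKO, 65.8 and 60.7 in treated WT and 39.7 and 33.9 in untreated WT. Slc37a3 had 88.03 and 87.99 CPM in treated dKO, 79.5 and 76.4 in untreated dKO, 77.9 and 79.3 in treated WT and 73.5 and 78.6 in untreated WT. Slc52a2, a riboflavin carrier, had 23.2 and 20.2 CPM in treated dKO, 19.1 and 19.3 in untreated dKO, 27.8 and 24.3 in treated WT and 20.2 and 21.7 in untreated WT and did not pass with cytokines in WT (adjusted p = 0.124).

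Whether cytokine changes differed between genotypes was tested with the interaction, the change in dKO minus that in WT. None of the 159 members passed in edgeR, beside 0% of all genes, and 34 members had an unadjusted p under 0.05. DESeq2 called 7, namely Slc3a2, Slc7a2, Slc12a5, Slc22a23, Slc25a24, Slc39a14 and Slc48a1. Without both dKO replicate 2 libraries edgeR called 4, namely Slc3a2, Slc12a2, Slc39a14 and Slc48a1. The largest of these differences were -1.96 ± 0.34 for Slc7a2 (adjusted p = 0.187), 1.95 ± 0.45 for Slc22a23 (adjusted p = 0.24), 1.76 ± 0.47 for Slc48a1 (adjusted p = 0.29) and 1.64 ± 0.29 for Slc12a5 (adjusted p = 0.187), in edgeR. The smallest adjusted p over all members was 0.187. By this fit, which has no replicate term, calls in 1 genotype only are not shown to differ between genotypes. A fit with a replicate block within genotype called 24 members, beside 6.03% of all genes, with Slc7a2, Slc39a14, Slc43a1 and Slc7a7 among them. That fit pairs libraries by replicate number, and the labels do not say what a number marks. For Slc7a2, the change with cytokines was 9.29-fold in dKO and 36.2-fold in WT, from untreated levels that differed as given above.

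**Figure D4:**
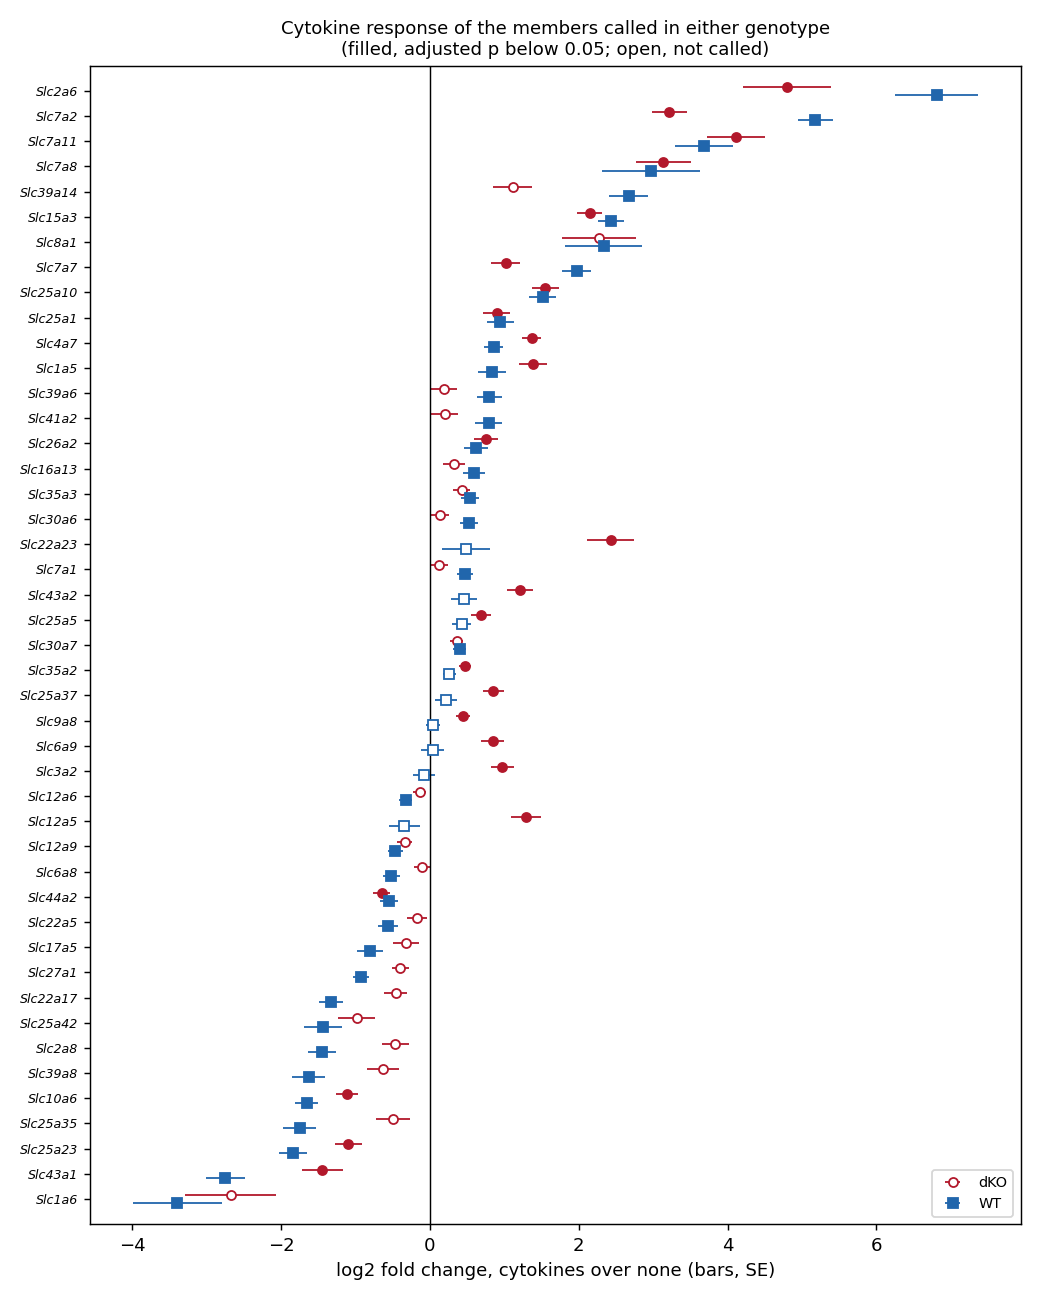
Log2 change with cytokines (cytokines minus none) of the 45 solute carriers called in at least 1 genotype, with dKO as circles and WT as squares, and bars of 1 standard error. No member called in both genotypes has opposite signs, and by edgeR without a replicate term the interaction passed for none of them.

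Genes that work with these carriers were read from lists, with the share of all genes called beside each. Of 14 tested partner and assembly proteins, 6 were higher and 2 lower in dKO with cytokines, and 5 higher and 0 lower without, with median log2 differences of 0.34 and 0.21. That is 57.1% and 35.7%, beside 34% and 23% of all genes. Without either WT library that had no cytokines, 1 was higher in the second comparison, and without either WT library with cytokines 3 were higher in the first. In the first, 0 were lower without WT replicate 1 with cytokines. Emb, an ancillary protein of lactate carriers, had 272 and 209 CPM in treated dKO, 698 and 388 in untreated dKO, 15.9 and 15.7 in treated WT and 68.5 and 86.1 in untreated WT. It was higher in dKO with cytokines (3.93 ± 0.29, adjusted p = 0.0015) and without (2.81 ± 0.29, adjusted p = 0.00405), and both calls held. Of 21 ATF4 targets and serine and asparagine synthesis genes, whose promoters often hold the element shown for Slc7a11, 9 were lower and 0 higher in dKO without cytokines, with a median of -0.68, beside 0.02 over all genes, and 42.9% called, beside 23%. Without WT replicate 2 that had no cytokines 3 were lower. With cytokines 2 were higher and 9 lower in dKO (52.4%, beside 34%), with the median again -0.68, and 1 was lower without WT replicate 1 with cytokines. For cytokines against none, 7 of the 21 were higher and 0 lower in dKO, and 3 higher and 0 lower in WT, with medians of 0.56 and 0.33. That is 33.3% and 14.3%, beside 5.55% and 17.4% of all genes. The dKO count fell whichever library was left out, and the WT count fell without WT replicate 1 of either treatment. Some of these WT calls, that of Aldh18a1 among them, were also lost without WT replicate 2 of either treatment. Mthfd2, a mitochondrial folate enzyme, had 72.5 and 70.2 CPM in treated dKO, 18.2 and 22.9 in untreated dKO, 120.2 and 119 in treated WT and 58.5 and 72 in untreated WT. It was lower in dKO without cytokines (-1.67 ± 0.14, adjusted p = 0.00212) and higher with cytokines in dKO (1.79 ± 0.14, adjusted p = 0.00516), and both calls held. Phgdh, which starts serine synthesis, was lower in dKO without cytokines, at 8.13 and 8.73 CPM in dKO and 32.1 and 29.1 CPM in WT (-1.86 ± 0.16, adjusted p = 0.00216), which held.

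Arginine use was read beside Slc7a2. Of 17 tested genes of arginine, nitric oxide and polyamine use, 2 were higher and 0 lower with cytokines in dKO, and 5 higher and 0 lower in WT, with median changes of 0.25 and 0.27. That is 11.8% and 29.4%, beside 5.55% and 17.4% of all genes. Both counts fell with single libraries left out, the first without dKO replicate 1 that had no cytokines and the second without either WT library that had none. Without WT replicate 1 with cytokines the second count fell too. Between genotypes, 3 were higher and 4 lower in dKO with cytokines, and 3 higher and 1 lower without. This was 41.2% and 23.5%, beside 34% and 23% of all genes, and these counts also fell with single WT libraries left out. Nos2, the inducible nitric oxide synthase, had 1009 and 380.3 CPM in treated dKO, 22.6 and 17.9 in untreated dKO, 258 and 220.4 in treated WT and 3.84 and 2.33 in untreated WT. Like Slc7a2, it was highest in treated dKO, followed by treated WT, untreated dKO and untreated WT, with no overlap between neighbours. Its genotype difference among treated cells was 1.54 ± 0.46 (adjusted p = 0.0491), lost without each library other than treated dKO replicate 2. Among untreated cells that difference was 2.72 ± 0.49 (adjusted p = 0.0179), lost without untreated dKO replicate 1 or either untreated WT library. Its increase with cytokines was 5.10 ± 0.46 in dKO (adjusted p = 0.0117), lost without untreated dKO replicate 1 (adjusted p = 0.0761), and 6.28 ± 0.49 in WT (adjusted p = 0.0036), which held. Of 15 glutathione synthesis and NRF2 target genes, read beside the cystine exchanger, 6 were higher and 0 lower in dKO than in WT with cytokines, and 1 was higher without, with medians of 1.11 and -0.01. That is 40% and 6.67%, beside 34% and 23% of all genes. Treated dKO replicate 1 stood above treated dKO replicate 2 in all 15. Nqo1, a quinone reductase, had 179.6 and 40.4 CPM in treated dKO, 22.1 and 11.9 in untreated dKO, 14.2 and 10.2 in treated WT and 25.9 and 16.8 in untreated WT, and Srxn1, sulfiredoxin, had 609 and 138 CPM in treated dKO, 78.03 and 58.1 in untreated dKO, 80.96 and 69.6 in treated WT and 72.3 and 65.2 in untreated WT. The first count was 0 without treated WT replicate 1, 1 without treated WT replicate 2, 4 without treated dKO replicate 1, 12 without treated dKO replicate 2 and 4 without either untreated WT library or untreated dKO replicate 2. The difference of Nqo1 among treated cells was 3.18 ± 0.70 (adjusted p = 0.025), and without treated dKO replicate 1 it was 1.72 (adjusted p = 0.0599).

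Zinc and iron handling genes were read beside the Slc39 carriers. Of 20 tested, 7 were higher and 3 lower in dKO with cytokines, and 7 higher and 4 lower without, with medians of 0.80 and 0.97. That is 50% and 55%, beside 34% and 23% of all genes. Without WT replicate 1 with cytokines 1 was higher in the first comparison, and without WT replicate 1 that had no cytokines 3 were higher in the second. In the second, 0 were lower without either WT library that had no cytokines. The metallothionein Mt2 had 17.1 and 10.2 CPM in treated dKO, 10.6 and 6.53 in untreated dKO, 2.51 and 3.22 in treated WT and 0.591 and 0.809 in untreated WT, and was higher in dKO without cytokines (3.598 ± 0.39, adjusted p = 0.00415), which held. Trf, the transferrin gene, was higher in dKO with cytokines (3.63 ± 0.27, adjusted p = 0.00127), which held. Of 25 tested pumps, water channels and lipid uptake genes, 5 were higher and 2 lower in dKO with cytokines, and 5 higher and 6 lower without, with medians of 0.24 and -0.14, or 28% and 44% called, beside 34% and 23%. Without either WT library that had no cytokines 2 were higher in the second comparison, and without WT replicate 1 of these 0 were lower. In the first comparison 1 was lower without WT replicate 1, WT replicate 2 or dKO replicate 1 with cytokines. Atp1b2, a beta subunit of the sodium pump, had 70.6 and 25.8 CPM in treated dKO, 187 and 75.2 in untreated dKO, 0.353 and 0.353 in treated WT and 1.03 and 0.809 in untreated WT, higher in dKO with cytokines (adjusted p = 0.00394) and without (adjusted p = 0.00482), and both calls held. Atp1b1, another beta subunit, was lower with cytokines in WT, at 1.46 and 2.12 CPM with them and 17.7 and 19.5 CPM without (-3.37 ± 0.22, adjusted p = 0.00123), which held. Of 22 ABC and OATP transporters, 4 were higher and 1 lower with cytokines in dKO, and 7 higher and 3 lower in WT, with medians of 0.48 and 0.27, or 22.7% and 45.5% called, beside 5.55% and 17.4%. Without either WT library that had no cytokines or dKO replicate 1 that had none, 0 were higher in dKO, and without either WT library that had no cytokines 1 was higher in WT. Of 16 tested genes of lysosomal amino acid sensing and mTORC1, 4 were higher and 2 lower in dKO with cytokines, and 3 higher and 1 lower without, with medians of 0.01 and 0.11, or 37.5% and 25% called, near the 34% and 23% of all genes. Without WT replicate 1 of the same treatment these were 1 higher and 0 lower, and 0 higher and 0 lower. Of 13 tested genes of mitochondrial calcium and pyruvate uptake, 2 were higher and 0 lower in dKO in each comparison, with medians of -0.01 and -0.03 and 15.4% called, below the share of all genes, and 0 were higher without WT replicate 1 of the same treatment.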

How the data were processed

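Gene counts were measured by RNA sequencing of 8 libraries. The authors deposited unnormalized counts of reads for each Ensembl gene, 1 column a library. FastQC 0.11.5, STAR 2.7.6a and GRCm38 are named in the submitters' processing notes, which give neither the counting program, the gene annotation nor the strand setting. Per the labels' protocols the kit was either unstranded or stranded, so overlapping genes on opposite strands may share counts. Groups and replicate numbers came from the sample titles.

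Counts were fitted with edgeR 4.0.16 (R 4.3.3) after TMM scaling and filtering of low genes, which left 15698. The robust quasi-likelihood model had a term for each group, used all 8 libraries and had 4 residual degrees of freedom. The two-sided p-values were adjusted by Benjamini and Hochberg's method across all tested genes in each comparison, with a threshold of 0.05. Printed CPM use TMM-scaled totals, and the level rule used plain totals. Floors (3 counts over a group) and the 95% counting interval cover counting error only. Coordinates are from GENCODE M21, counted from 1, and 52403 identifiers had a symbol. Exon 50-mers shared with other genes and exon overlaps of at least 10% mark uncertain genes. Alternatives were DESeq2 1.42.0, RLE scaling, no filter, fits on 4 libraries, a replicate block and leaving out libraries. Members, classes and lists were chosen with earlier results of these data known. Values in every library are given for the largest changes per comparison, for the highest level and smallest p of each class, for the members at the edge of the level rule and for members that the text compares with these, except 1 member that is not reported here. From the other lists, examples are taken from the 3 largest changes called in each comparison.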

Additional observations from a re-analysis of the deposited data

How the results depend on the processing

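The 4 counts of called members kept within 1.5 times of the reported count with RLE scaling and with no filter on low counts. Leaving out 1 library moved the count between dKO and WT to 13 to 55 among untreated and 18 to 66 among treated cells, and the cytokine count to 3 to 23 in dKO and 12 to 38 in WT, with 0 interaction calls throughout. A fit on only the 4 libraries compared gave 42 members between treated dKO and treated WT, 0 for the cytokine comparison in dKO and 65 for that in WT, and the cause was not tested. DESeq2 gave 39 for the cytokine comparison in dKO and 7 for the interaction. Without both dKO replicate 2 libraries, 75 members differed between untreated dKO and WT, 64 with cytokines in WT and 4 in the interaction. Libraries share replicate numbers, but the labels do not say what a number marks. Deviations of replicate 1 from the group mean correlated at 0.76 between the dKO groups, 0.53 between the WT groups and 0.0694 to 0.181 across genotypes, a hint from the data and not from the design. With the replicate block the counts were 64 and 78 between genotypes, 34 and 46 with cytokines in dKO and WT, and 0 for the interaction. With the replicate block within genotype they were 68 in dKO, 77 in WT and 24 for the interaction. Of the 171 calls of members in the 4 comparisons, 39 kept their side of the threshold under every alternative, 42 did so without each library in turn, and 0 changed sign. With 2 libraries a group and totals of 23009062 to 26944030 counts, replicates differed by a chi-square per degree of freedom of 22.6 to 92.4, where counting error alone gives about 1, and levels under 1 CPM rest on few reads.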
